A study of Mus musculus with 6 samples.

Results

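Transmembrane mucins form the glycocalyx of the colon surface, and 4 of them were measured here in epithelial cells along the mouse colon: Muc13, Muc4, Muc1 and Muc20. They were chosen by gene symbol from 5 listed names, and they are 4 of the 24346 gene entries given for each library. The fifth listed name, Muc3, was not analysed here. The libraries were made from primary epithelial cells of distal, middle and proximal colon, 1 female and 1 male library per region (n = 2 per region, 6 libraries in all). All mice were wild-type, of the inbred strain C57BL/6J, and had no treatment. No allele, transgene or agent distinguishes the groups. The labels do not give the age of the mice, how many mice a library holds, how the cells were isolated, or whether 1 mouse supplied all 3 regions. The p-values can then measure only how these libraries vary, and part of that may be technical.

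Transmembrane mucins are glycoproteins with a heavily O-glycosylated outer part, a membrane-spanning stretch and a short tail inside the cell. They stand on the tips of the microvilli of the apical membrane, beneath the secreted mucus that Muc2 builds, and act as a barrier and as sensors at the cell surface. Muc13 and Muc1 carry a SEA domain, a fold found in many membrane mucins, and Muc4 carries EGF-like domains and was described as a partner of the receptor ErbB2. Muc20 is a smaller member that was described in human cells as a partner of the receptor MET.

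Values are FPKM, a level scaled to transcript length and library size, so that levels can be compared between genes. Total FPKM was 546269 to 612818 per library, and the steps between low values gave an estimated depth of 7.84 to 9.85 M fragments per library. At that depth, and with the longest coding transcript as the length, Muc13 rested on about 10233 to 22308 fragments per library and Muc4 on 1226 to 4255. The lower members rested on far fewer, 8 to 155 for Muc1 and 33 to 124 for Muc20. The summed level of 7 epithelial markers was 8126 to 9830 FPKM in the 6 libraries, and that of 5 fibroblast markers was at most 3.26 FPKM. The male proximal library stood apart in the lymphocyte and surface colonocyte marker lists. Its lymphocyte markers summed to 36.4 FPKM against 2.56 to 15.0 FPKM in the other 5 libraries, and its surface colonocyte markers to 14330 against 16747 to 17946 FPKM. Its enteroendocrine markers went in both directions. Chgb was at 73.2 against at most 31.9 FPKM, but Pyy was at 31.1 against at least 53.1 FPKM. The sum of that list, 257 FPKM, lay within the 120 to 275 FPKM of the other 5 libraries.

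The RefSeq sequence upstream of the start is shown for 3 genes: for Muc13, whose level differed between the ends of the colon, and for Muc4 and Muc20, whose levels ran in parallel. Muc13 lies on chromosome 16 (mm10, 33794037 to 33819934, plus strand, 13 exons in its longest coding transcript) and the window printed is chr16:33793787-33794036. RefSeq gives 2 windows for Muc13. The one with the lower position is printed, and the other was not described. Muc4 lies on the same chromosome at 32735886 to 32782391 on the plus strand (27 exons), with the window chr16:32735636-32735885. Its neighbour Muc20 occupies 32777419 to 32797435 on the minus strand (4 exons), with the window chr16:32797436-32797685. Muc1 lies on chromosome 3 at 89229057 to 89233381 on the plus strand (7 exons). Each sequence is the 250 bases before the annotated start in build GRCm38.p6, written 5' to 3' on the strand of the gene, and capitals mark matches to the motifs described after it.
Muc13: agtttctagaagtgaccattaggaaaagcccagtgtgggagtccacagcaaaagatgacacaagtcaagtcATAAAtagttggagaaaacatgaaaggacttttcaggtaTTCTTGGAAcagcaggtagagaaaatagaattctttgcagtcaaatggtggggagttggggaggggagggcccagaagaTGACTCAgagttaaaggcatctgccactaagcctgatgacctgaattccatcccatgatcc
Muc4: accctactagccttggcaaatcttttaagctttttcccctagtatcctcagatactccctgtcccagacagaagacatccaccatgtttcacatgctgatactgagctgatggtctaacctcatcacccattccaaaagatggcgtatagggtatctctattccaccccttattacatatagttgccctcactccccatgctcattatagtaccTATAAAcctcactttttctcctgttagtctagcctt
Muc20: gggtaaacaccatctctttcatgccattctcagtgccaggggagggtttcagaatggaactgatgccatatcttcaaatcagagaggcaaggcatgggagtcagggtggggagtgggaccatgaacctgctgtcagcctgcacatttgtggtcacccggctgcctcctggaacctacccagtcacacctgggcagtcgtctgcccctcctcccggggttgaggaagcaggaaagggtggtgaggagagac

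Both strands were searched for 7 motifs: the TATA box TATAAA, the GC box GGGCGG, the Cdx core TTTAT, the Gata site AGATAA, the Hnf1 half-site GTTAAT, the AP-1 site TGANTCA and the Stat site TTCNNNGAA. The Cdx core read on the other strand, ATAAA, is also the end of the TATA box, so a TATA box always counts as a Cdx core too. The printed window of Muc13 held a Cdx core at positions -179 to -175, a Stat site at -140 to -132 and an AP-1 site at -61 to -55, counted from the start. Of all 32851 windows, 37.3% held a Cdx core, 7.02% a Stat site and 6.75% an AP-1 site. Muc4 had a TATA box at -36 to -31, present in 12.4% of windows, and the Cdx core within it. The window of Muc20 held no match to the 7 motifs, and its GC content was 57.2% against a median of 52.4% over all windows. The window of Muc1, not printed, held a TATA box and 2 GC boxes, and a GC box was present in 32.7% of windows. These matches describe the letters of the windows and were not tested for function.

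Muc13 was the main transmembrane mucin transcript of the 4 in every library. It made up 97.9% and 97.3% of their summed FPKM in the female and male distal libraries, 94.2% and 89.8% in the middle ones and 93.1% and 96.3% in the proximal ones. Among all entries it ranked between position 138, in the female distal library, and position 206, in the male proximal library. Muc4 was second in all 6 libraries. Muc1 came next and Muc20 last in the 3 female libraries and in the male distal library, whereas Muc20 stood above Muc1 in the male middle library (4.51 against 4.44 FPKM) and in the male proximal library (1.51 against 0.489 FPKM). The summed level of the 4 genes was 787 ± 68.6 FPKM in distal, 601 ± 57.2 FPKM in middle and 512 ± 46.6 FPKM in proximal colon (mean ± SD, n = 2), and it carries no test because the members were chosen with earlier results of these data known.

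**Figure D1:**
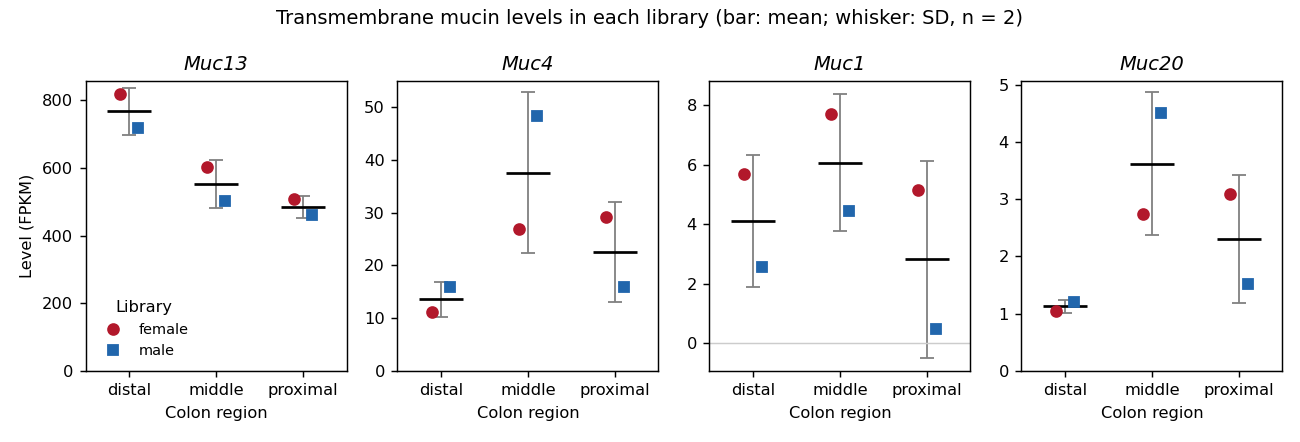
Levels in FPKM (y axis, linear, a separate scale for each gene) of Muc13, Muc4, Muc1 and Muc20 in distal, middle and proximal colon, with circles for female and squares for male libraries, a bar for the mean and whiskers for the SD (n = 2). Both distal libraries stood highest for Muc13 (818 and 719 FPKM), and Muc1 was higher in the female than in the male library of every region.

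Muc13 rose in distal against proximal colon. It was at 818 and 719 FPKM in the female and male distal libraries, 604 and 503 FPKM in the middle ones and 508 and 461 FPKM in the proximal ones. Both distal libraries lay above the other 4, while the middle and proximal libraries overlapped. The level was 768 ± 69.8 FPKM in distal against 484 ± 32.7 FPKM in proximal colon (mean ± SD, n = 2), 1.61-fold higher in the female pair and 1.56-fold in the male pair. The log2 difference on the log2(FPKM + 1) scale, used for all differences here, was 0.66 (SE 0.13, 95% interval 0.35 to 0.98, limma adjusted p = 0.026). Muc13 was the only member called, 1 of 4, where limma called 14.1% of the 11815 genes tested in this comparison, 6.47% of them higher and 7.64% lower in distal colon.

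The size of the Muc13 difference held in every alternative, at 0.60 to 0.71 on the log2 scale, but its call did not. Leaving out the female distal, male distal, female proximal or male proximal library gave limma adjusted p = 0.19, 0.27, 0.098 and 0.068, and omitting sex from the model gave 0.053. Without a filter on low levels it was 0.060. Relative to the epithelial genes Epcam and Krt8 the order was similar. The ratio of Muc13 to Epcam, an epithelial adhesion molecule, was 0.991 and 0.824 in the female and male distal libraries, 0.756 and 0.611 in the middle ones and 0.584 and 0.621 in the proximal ones. Against the keratin gene Krt8 the ratio was 0.204 and 0.188 in distal, 0.182 and 0.131 in middle and 0.129 and 0.138 in proximal libraries. On both scales the distal libraries were again the highest. Ratios to the other epithelial markers were not calculated and can differ. Between distal and proximal colon Cdh1 had a log2 difference of 0.46 and Vil1 of -0.38 (limma adjusted p = 0.097 and 0.16).

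Towards the middle colon Muc13 differed less. Its level was 553 ± 71.4 FPKM in middle colon (mean ± SD, n = 2), with a log2 difference of 0.19 against proximal colon (95% interval -0.13 to 0.50, limma adjusted p = 0.52) and groups that overlapped. Between distal and middle colon the log2 difference was 0.48 (95% interval 0.16 to 0.79), which did not pass the adjusted threshold (limma adjusted p = 0.21, unadjusted p = 0.011) although both distal libraries were above both middle ones. limma called 0.499% of genes in that comparison and 2.45% between middle and proximal colon, and it called 0 of the 4 members in either. By direction, 0.110% of genes were higher and 0.389% lower in distal than in middle colon, and 1.19% were higher and 1.25% lower in middle than in proximal colon. At an unadjusted p under 0.05, Muc13, Muc4 and Muc20 passed between distal and middle colon, among 1499 of the 11815 genes tested. Muc1 passed between middle and proximal colon, among 2164 of them. Muc4 and Muc20 may not be 2 separate passes, because their exons overlap, as described below.

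**Figure D2:**
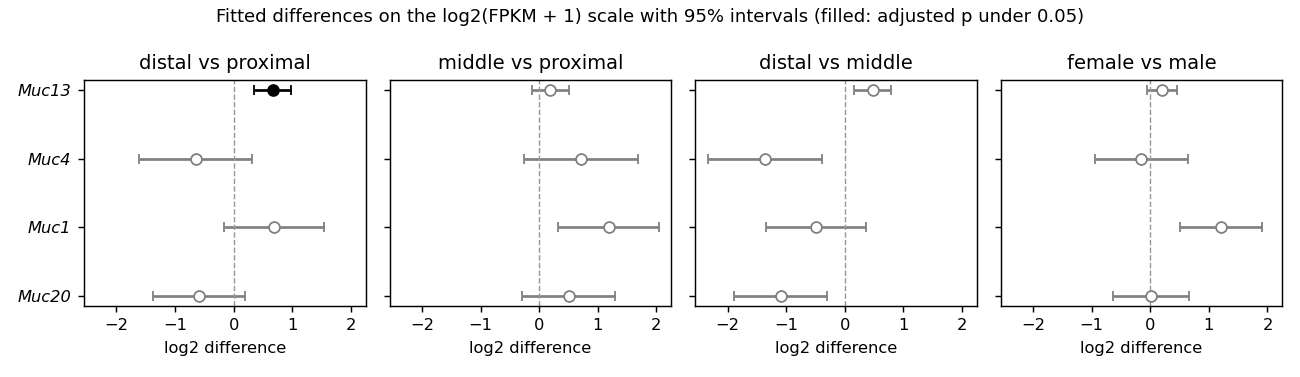
Fitted differences of each member (x axis, log2 scale of FPKM + 1) with 95% intervals for distal against proximal, middle against proximal and distal against middle colon and for female against male libraries; filled points have an adjusted p under 0.05. Only Muc13 between distal and proximal colon is filled, at 0.66, and the intervals of Muc4 and Muc20 lie below 0 between distal and middle colon.

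In bulk samples such as these, fewer cells of a type and less RNA per cell cannot be told apart. Marker lists of several cell types held genes that differed between distal and proximal colon. In this comparison limma called 6.47% of all genes higher and 7.64% lower in distal colon. Of 8 surface colonocyte markers, limma called 0 higher and 2 lower in distal colon, and the median log2 difference of the list was 0.75. The 2 called lower were Emp1 (log2 difference -3.71, limma adjusted p = 0.0083) and Guca2a (-1.69, 0.041). Krt20, not called, had a log2 difference of -1.31 (limma adjusted p = 0.062). The other 5 were not called and had positive log2 differences of the size of that of Muc13 or more. These were 0.80 for Slc26a3, 1.07 for Car4, 1.59 for Aqp8, 0.80 for Ceacam20 and 0.71 for Lypd8 (limma adjusted p = 0.052 to 0.16). The summed level of the 8 was 16747 and 17474 FPKM in the female and male distal libraries and 17656 and 14330 FPKM in the proximal ones. Of 8 goblet cell markers 4 were higher and 2 lower, with sums of 8280 and 7130 FPKM in distal and 5735 and 4667 FPKM in proximal libraries. Lymphocyte markers (3 of 6 lower, 0 higher) summed to 2.84 and 2.56 FPKM in distal and 15.0 and 36.4 FPKM in proximal libraries. Their part in the Muc13 result was not tested.

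Muc13 and the secreted mucin Muc2 stood in a different order in distal colon than in the other regions. Muc2, the gel-forming mucin of colonic mucus, was at 275 and 323 FPKM in the female and male distal libraries, 997 and 1980.4 FPKM in the middle ones and 1373 and 1607 FPKM in the proximal ones. Muc13 was the more abundant transcript in both distal libraries and Muc2 in the other 4. The ratio of Muc13 to Muc2 was 2.98 and 2.23 in the female and male distal libraries, 0.606 and 0.254 in the middle ones and 0.370 and 0.287 in the proximal ones. Its mean was 2.60 ± 0.530 in distal against 0.328 ± 0.0585 in proximal colon (SD, n = 2). With 2 libraries against 2 an exact two-sided permutation test cannot go below p = 0.333, so this ratio is given without one. The log2 difference of Muc2 between distal and proximal colon was -2.31, a fall with limma adjusted p = 0.0049 (SE 0.23). The other 4 gel-forming mucins, Muc5ac, Muc5b, Muc6 and Muc19, did not reach the level needed for the tests.

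**Figure D3:**
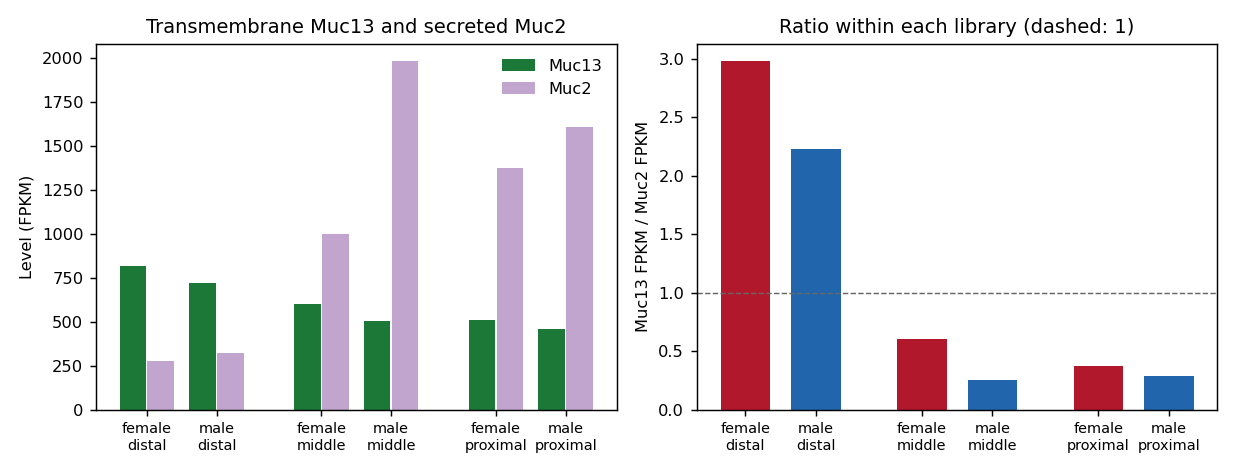
Levels in FPKM of Muc13 and Muc2 (left, linear axis from 0) and the ratio of Muc13 to Muc2 within each library (right, linear axis from 0, dashed line at 1), for the female and male libraries of distal, middle and proximal colon. The ratio is 2.98 and 2.23 in the distal libraries and at most 0.606 in the other 4.

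Muc4 had its lowest mean in distal and its highest in middle colon. It was at 11.2 and 15.9 FPKM in the female and male distal libraries, 26.8 and 48.4 FPKM in the middle ones and 29.2 and 15.9 FPKM in the proximal ones. The male middle library was the highest, and both distal libraries lay below both middle ones. Its mean was 13.6 ± 3.33 FPKM in distal, 37.6 ± 15.2 FPKM in middle and 22.5 ± 9.43 FPKM in proximal colon (SD, n = 2). The log2 difference between distal and middle colon was -1.36 (SE 0.39, 95% interval -2.33 to -0.40, limma adjusted p = 0.24). Without the male or the female proximal library, neither of which belongs to this comparison, the same difference had limma adjusted p = 0.0045 and 0.0046, since the spread is estimated over all libraries in the fit. Leaving out a library of the comparison itself gave -0.86 (limma adjusted p = 0.92) without the male and -1.87 (0.23) without the female middle library, and -1.60 (0.62) without the male and -1.13 (0.63) without the female distal library.

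Between the ends, the direction of Muc4 rested on the proximal library it was set against. The log2 difference of distal against proximal colon was -0.65 (limma adjusted p = 0.34). It was -1.39 (limma adjusted p = 0.0039) without the male proximal library and 0.10 (limma adjusted p = 0.79) without the female one. Muc4 in distal colon was 0.385 times its proximal level in females, whereas both male libraries were at 15.9 FPKM. Between middle and proximal colon the corresponding ratios were 0.918 in females and 3.05 in males, and the fitted log2 difference was 0.72 (limma adjusted p = 0.42). It was 1.46 (limma adjusted p = 0.0052) without the female and -0.030 (0.96) without the male proximal library.

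Muc20 ordered the libraries nearly as Muc4 did, at a lower level, the exception being the male distal and male proximal libraries, where Muc4 was about equal. It was at 1.04 and 1.21 FPKM in the female and male distal libraries, 2.74 and 4.51 FPKM in the middle ones and 3.09 and 1.51 FPKM in the proximal ones. Both distal libraries were below the other 4. Against middle colon the log2 difference of distal colon was -1.10 (SE 0.32, limma adjusted p = 0.25, and 0.040 or 0.043 without the male or the female proximal library). It was -0.67 (limma adjusted p = 0.92) without the male and -1.52 (0.22) without the female middle library, and adjusted p was 0.76 and 0.62 without the male and the female distal library. Against proximal colon it was -0.59 (limma adjusted p = 0.29), -1.11 (0.042) without the male proximal library and -0.07 (0.91) without the female one, and that of middle against proximal colon was 0.50 (0.49), 1.02 (0.089) without the female and -0.018 (0.99) without the male proximal library. The ratio of Muc4 to Muc20 within a library was 10.8 and 13.2 in the female and male distal libraries, 9.78 and 10.7 in the middle ones and 9.44 and 10.5 in the proximal ones. Its highest value was 1.40 times the lowest, while the highest Muc4 level was 4.31 times the lowest and the highest Muc20 level 4.32 times.

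The genes lie tail to tail and overlap by 4973 bases. Within the overlap, the last exon of the longer Muc20 transcript covers 3 coding exons of Muc4 (exons 23, 24 and 25 of its longest transcript), on the opposite strand, so that 381 bases belong to exons of both. These are 10.4% of the 3673 bases of the Muc20 transcript and 3.38% of the 11277 bases of the Muc4 transcript. With the exons of every annotated Muc4 transcript, noncoding ones included, 627 exon bases of Muc20 are shared, 15.6% of the exon bases of its coding transcripts, so the levels calculated next depend on the transcripts assumed. The library kit marks the strand, but how strand was used in the counting is not given in the sources used here, and without it reads from the 2 genes cannot be told apart over these bases. The Muc4 level multiplied by the share of the Muc20 transcript that is common to both came to 1.17 and 1.65 FPKM in the female and male distal libraries, 2.78 and 5.02 FPKM in the middle ones and 3.03 and 1.65 FPKM in the proximal ones. The listed Muc20 levels lay nearest in the female middle library (2.74 against 2.78 FPKM) and farthest, as a ratio, in the male distal library (1.21 against 1.65 FPKM). The values of Muc20 are therefore uncertain.

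**Figure D4:**
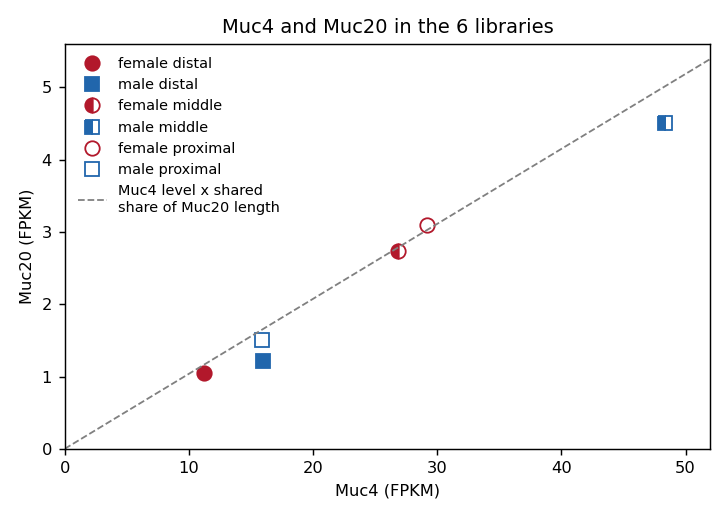
Muc20 level (y axis, FPKM) against Muc4 level (x axis, FPKM), 1 point per library, with circles for female and squares for male libraries and full, partly filled and open symbols for distal, middle and proximal colon. The dashed line is the Muc4 level multiplied by the share of the Muc20 transcript that both genes cover, and the male distal point lies lowest relative to it, with ratios of Muc4 to Muc20 of 9.44 to 13.2.

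The same quantity was calculated over opposite-strand gene pairs, Muc4 and Muc20 among them, to see what it amounts to in these libraries. Among coding genes, 163 opposite-strand pairs shared at least 10% of the lower gene's longest transcript, differed at least 5-fold in mean FPKM and gave an expected level of at least 1 FPKM from the shared bases. In 71 of them the lower gene was listed below 10% of that level, and the median of its listed level over that level was 0.147. In 28 of the 163 pairs, the pair of Muc4 and Muc20 included, it was at least 0.5. Keeping only pairs that differ at least 5-fold puts an upper limit on this ratio, and the limit is lower where more is shared. The median and the counts are thus partly set by the selection and give no background for Muc20. Which strand the reads of Muc20 came from was not tested.

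**Figure D5:**
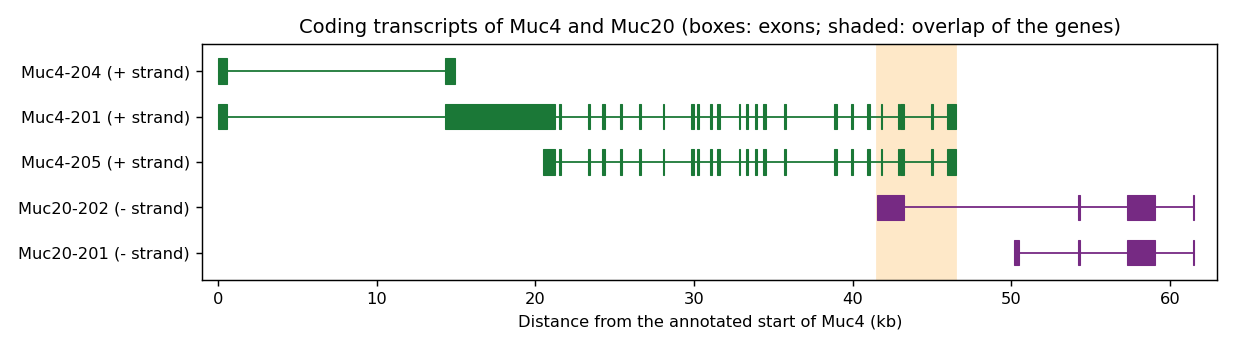
Coding transcripts of Muc4 (plus strand, upper 3 lines) and Muc20 (minus strand, lower 2 lines), with exons as boxes, against distance from the annotated start of Muc4 in kilobases. The shaded stretch is the 4973-base overlap of the genes, where the last exon of the longer Muc20 transcript crosses exons of Muc4.

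Tuft cell markers were lowest in distal colon, as the mean levels of Muc4 and Muc20 were. In males, however, Muc4 was about equal in distal and proximal colon. The summed goblet cell markers were highest in middle colon, though Muc2, Spdef and Tff3 did not have their highest mean there. The summed level of the 5 tuft cell markers measured was 1.23 and 1.92 FPKM in the female and male distal libraries, 7.61 and 10.6 FPKM in the middle ones and 7.37 and 9.85 FPKM in the proximal ones. The 8 goblet cell markers summed to 8280 and 7130 FPKM in distal, 14567 and 10049 FPKM in middle and 5735 and 4667 FPKM in proximal libraries. Neither list shared the order of Muc4 in all 6 libraries, and their part in the Muc4 and Muc20 levels was not tested.

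Muc1 was low throughout and higher in the female library of each region. Muc1 encodes the archetypal membrane mucin, whose outer part can be shed and whose tail takes part in signalling. It was at 5.67 FPKM in the female and 2.55 FPKM in the male distal library, at 7.69 and 4.44 FPKM in the middle ones, and in proximal colon at 5.15 FPKM in the female and 0.489 FPKM in the male library. The lowest value, in the male proximal library, rested on about 8 fragments. The female library was higher by 2.22-fold in distal, 1.73-fold in middle and 10.5-fold in proximal colon, so that all 3 female libraries lay above all 3 male ones. The log2 difference of female against male libraries, with region in the model, was 1.21 (SE 0.28, 95% interval 0.51 to 1.91), and 0.79 without either proximal library. It did not pass the adjusted threshold (limma adjusted p = 0.39, and 0.14 to 0.98 over the alternatives), with an unadjusted p of 0.0060, in a comparison where limma called 5 of 11815 genes, 0.0423%, with 0.00846% higher and 0.0339% lower in females. It called 0 of the 4 members there, and 1256 of the 11815 genes had an unadjusted p under 0.05. The same replicate number goes with the same sex in all 3 regions. The 3 libraries of a sex may come from 1 mouse, so sex and animal cannot be told apart here.

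By region Muc1 averaged 4.11 ± 2.21 FPKM in distal, 6.06 ± 2.30 FPKM in middle and 2.82 ± 3.30 FPKM in proximal colon (SD, n = 2), and the 3 regions overlapped. The log2 difference of middle against proximal colon was 1.18 (SE 0.34, limma adjusted p = 0.15, unadjusted p = 0.015). It was 1.81 (limma adjusted p = 0.0066) without the female proximal library and 0.56 (0.25) without the male one, and 0.78 (0.45) without the male middle library. Distal against proximal colon gave 0.69 (limma adjusted p = 0.26). It was 1.31 (limma adjusted p = 0.012) without the female proximal library and 0.059 (0.89) without the male one, so its size rested on which proximal library was kept. The difference between distal and middle colon was -0.50 (limma adjusted p = 0.64).

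As with Muc1, no difference by sex passed the adjusted threshold for the other 3 members. The log2 difference of female against male libraries was 0.20 for Muc13 (95% interval -0.06 to 0.45), -0.15 for Muc4 (-0.94 to 0.64) and 0.01 for Muc20 (-0.63 to 0.66). Muc13 was nevertheless higher in the female library of each region, by 1.14-fold in distal, 1.20-fold in middle and 1.10-fold in proximal colon. Muc4 was lower in the female library in distal (0.705 times) and middle (0.554 times) and higher in proximal colon (1.84 times).

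The 5 genes whose profile over the 6 libraries was most like that of Muc13 were Klf9, Ano6, Ssbp3, Gcdh and Ppp2cb. They were taken from 8654 genes with a mean of at least 5 FPKM by the smallest root-mean-square difference of centred log2 values, which was 0.040 for Klf9 and 0.060 for Ppp2cb. Klf9, a Krüppel-like transcription factor, was at 31.1 and 26.0 FPKM in the female and male distal libraries, 22.7 and 18.7 FPKM in the middle ones and 19.4 and 16.1 FPKM in the proximal ones, with Pearson r = 0.99 to Muc13 over these 6 libraries. Pearson r was 0.98 to 0.99 for the other 4, which include the phospholipid scramblase Ano6 and the mitochondrial enzyme Gcdh. These likenesses are descriptions over the same libraries that gave the Muc13 values.

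Of 11 other listed mucins and mucin-like proteins of the cell surface, 6 were analysed here and 2 of these passed the filter on low levels. Parm1, a mucin-like membrane protein, rose in distal colon. It was at 107 and 102 FPKM in the female and male distal libraries, 91.4 and 103 FPKM in the middle ones and 64.1 and 52.9 FPKM in the proximal ones, a log2 difference of 0.83 between the ends (SE 0.13, limma adjusted p = 0.017). The sialomucin gene Cd164 was at 88.6 ± 19.7 FPKM in distal and 96.0 ± 7.49 FPKM in proximal colon (SD, n = 2; log2 difference -0.13, limma adjusted p = 0.52). Muc15 and the endothelial sialomucin gene Emcn were listed at 0 in all 6 libraries.

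The microvillus that carries these mucins was described by a list of 20 genes for tip links, scaffolds and PDZ adaptors, all of them tested. In distal against proximal colon 1 rose, 6 fell and 13 did not pass the threshold, against 6.47% and 7.64% of all genes, and their median log2 difference was -0.41 against 0.01 over all genes. Among those that fell were Myo7b, the motor of the tip-link complex (56.2 ± 8.19 FPKM in distal and 88.4 ± 3.47 FPKM in proximal colon, SD, n = 2, limma adjusted p = 0.021), and the actin bundler Espn (43.9 ± 13.5 and 65.7 ± 18.7 FPKM, limma adjusted p = 0.021). The membrane-associated scaffold Mpp1 and the PDZ adaptor Slc9a3r2 fell by 1.12 and 0.95 on the log2 scale (limma adjusted p = 0.013 and 0.019). The gene that rose, singled out after its values were seen, was Pdzk1, a PDZ adaptor of the brush border, at 4.31 ± 0.464 FPKM in distal and 2.08 ± 0.392 FPKM in proximal colon (log2 difference 0.79, limma adjusted p = 0.047). limma called 0 of the 20 in the other 3 comparisons. There it called few genes at all: 2.45% between middle and proximal colon, 0.499% between distal and middle colon and 0.0423% between the sexes.

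Genes that act on or with membrane mucins were described by lists of partners and proteases. Of 9 tested signalling partners, among them Erbb2, Met and the mucin-binding galectin Lgals3, limma called 0 in each of the 4 comparisons. Over all genes it called 14.1% between distal and proximal, 2.45% between middle and proximal and 0.499% between distal and middle colon. Between the sexes it called 0.0423%. With 9 genes, a count of 0 does not set them apart from all genes. Lgals3 was at 1539 ± 132 FPKM in distal and 2021 ± 196 FPKM in proximal colon (SD, n = 2; log2 difference -0.39, limma adjusted p = 0.19). Of 9 tested proteases, several of which release membrane proteins, 0 rose, 2 fell and 7 did not pass between distal and proximal colon, where 7.64% of all genes fell. Mep1a, a meprin subunit of the brush border, fell to 97.1 ± 1.81 FPKM in distal colon, against 215 ± 12.1 FPKM in proximal colon (log2 difference -1.14, limma adjusted p = 0.012), and the aspartic protease gene Bace2 fell by 0.78. The proteases Adam10 and Adam17, which shed many membrane proteins, were not among those called.

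The last list holds enzymes that start and build O-glycans, the sugar chains of all mucins. Of 16 tested, 1 rose, 6 fell and 9 did not pass between distal and proximal colon, against 6.47% higher and 7.64% lower over all genes, with a median log2 difference of -0.30. B3gnt6, which makes the core 3 chain, fell by 4.51 on the log2 scale, and Gcnt3, a branching enzyme, had a log2 difference of -3.29 (limma adjusted p = 0.0028 and 0.0089), while the core 2 enzyme gene Gcnt1 rose by 2.04 (limma adjusted p = 0.0028). Muc13 was at its highest level in the distal libraries, where B3gnt6 and Gcnt3 were lowest and Gcnt1 was highest. A link between these levels was not tested. Gcnt3 was at 12.3 and 7.81 FPKM in the female and male distal libraries, against 79.5 and 138 FPKM in the proximal ones.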

How the data were processed

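The authors deposited 1 table of FPKM per library. The submitters' processing notes name Cuffdiff 2.2.1, SAMtools 0.1.18, TopHat2 2.1.1 and Bowtie2 2.2.8, and the build mm10. Their settings, the annotation and whether strand was used were not given in the sources used here. Per the labels' protocols, libraries were strand-specific and made from polyadenylated RNA.

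Deposited FPKM was analysed as log2(FPKM + 1), a scale that understates changes of low genes. Genes with at least 1 FPKM in at least 2 libraries were kept, 11815 of 24346, including all 4 members. limma 3.58.1 in R 4.3.3 fitted region and sex additively over the 6 libraries with a variance trend (2 residual and 3.49 prior degrees of freedom). p-values were adjusted by the Benjamini-Hochberg method over all kept genes at a threshold of 0.05. Because sex is a term, libraries of a sex are matched across regions. For region by sex, 0 residual degrees of freedom remain.

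Depth was estimated from the spacing of values under 0.2 FPKM for genes with 1 transcript longer than 1500 bases and an assumed fragment length of 200 bases. Between 65.0% and 71.3% of these values came within 0.05 of a whole number of fragments, so the depth is approximate. Positions come from GENCODE M21 (mm10) and upstream sequences from RefSeq (GRCm38.p6), matched by symbol.

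The members, gene lists and tests were chosen with earlier results of these data known. The genes named from each list were mostly those, up to 4, with the smallest adjusted p between distal and proximal colon. Others were named after their values were seen, among them Car4, Aqp8, Ceacam20, Lypd8, Tff3 and Pdzk1. The fit was first checked on simulated data with larger changes than that of Muc13, so the check does not bear on the Muc13 call. Alternatives changed the pseudocount, filter, scaling, variance trend or model term, or left out 1 library. Python 3.11.15 and matplotlib 3.10.9 drew the figures.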

Additional observations from a re-analysis of the deposited data

Results flagged for a closer look

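Of the region differences, 3 had opposite signs in females and males, with 1 library per sex and region. Between distal and proximal colon, Muc4 had a log2 difference of -1.30 in females and 0.01 in males, which is close to no difference, a gap of -1.31. Between middle and proximal colon, Muc4 had -0.12 in females and 1.55 in males, a gap of -1.67, and Muc20 had -0.13 in females and 1.13 in males, a gap of -1.26. These gaps were not tested, because no residual degrees of freedom are left for region by sex. All 3 involve the proximal libraries, where Muc4 was at 29.2 FPKM in the female and 15.9 FPKM in the male library.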

How the results depend on the processing

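Muc13 kept its direction in all alternatives. No member was called between distal and proximal colon without the filter or without the replicate block (sex left out of the model), 0 in each against 1, and leaving out single libraries gave 0 to 2. Leaving out libraries gave 0 to 2 members for middle against proximal and for distal against middle colon, against 0 with all libraries. Over all genes, leaving out libraries gave 334 to 1518 calls (1668 with all) between distal and proximal, 0 to 777 (289) between middle and proximal, 0 to 426 (59) between distal and middle colon and 3 to 25 (5) between the sexes. The counts for middle against proximal and for distal against middle colon were 4 and 2 without a filter, 187 and 29 without a variance trend, and 24 and 17 without the replicate block. The cause was not tested. Of 204 values of single members under an alternative, 180 kept direction and side of the threshold, 6 lost and 9 gained a call, and 9 reversed. Without single libraries, Muc4 was -1.39 to 0.10 between distal and proximal, -0.030 to 1.46 between middle and proximal colon and -0.65 to 0.19 between the sexes, and Muc20 was -0.018 to 1.02 between middle and proximal colon and -0.34 to 0.30 between the sexes. Muc1 was 0.059 to 1.31 between distal and proximal, 0.56 to 1.81 between middle and proximal and -0.90 to -0.096 between distal and middle colon, where Muc4 was -1.87 to -0.86 and Muc20 -1.52 to -0.67. All 9 reversals came from leaving out a library: Muc4 between distal and proximal colon (without the female proximal library), Muc4 and Muc20 between middle and proximal colon (without the male proximal library), and, between the sexes, Muc4 (0.01 without either distal, 0.19 without either middle library) and Muc20 (-0.34 without either proximal library). Muc20 did not reach the minimum of 5 FPKM, so that alternative gives it no value. With 1 library left out, its partner is taken to have the same spread as the remaining libraries. Low read numbers limit Muc1 and Muc20.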
